A study of Homo sapiens with 6 samples.

Results

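The proteasome genes described here were 52 protein-coding genes out of the 58219 gene identifiers counted. They were chosen by symbol: every gene named PSMA, PSMB, PSMC, PSMD, PSME, PSMF or PSMG followed by a number, plus POMP and ADRM1. By role they comprised 15 core subunits, 3 immunoproteasome subunits, 1 thymoproteasome subunit, 23 regulatory subunits, 8 assembly factors and 2 genes that the naming rule caught although they are no subunits (PSMC3IP and PSME3IP1). RNA was sequenced from SNU-387, an established human cell line from a pleomorphic hepatocellular carcinoma. The shYES1 cells stably carried a short hairpin RNA against YES1, an SRC-family tyrosine kinase (3 libraries), and the shNT cells stably carried a hairpin with no target (3 libraries). No drug or other treatment is named for either group. The sources used here name neither the hairpin sequences nor their number, and do not say whether a line came from 1 clone. Separate cultures are not stated for the 3 libraries of a group, and the spread that the p-values rest on may be technical.

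The proteasome is the complex that degrades proteins tagged with ubiquitin. Its 20S core is a barrel of alpha rings, which gate the entrance, and beta rings, which hold the proteolytic sites. The 19S regulatory particle caps the barrel to form the 26S proteasome: its base unfolds substrates with a ring of ATPases, and its lid removes the ubiquitin chain. In immune cells and in cells exposed to interferon-gamma, 3 catalytic beta subunits are replaced by immunoproteasome counterparts, which changes the peptides made for antigen presentation. Dedicated chaperones assemble the core and the base and are mostly not part of the finished particle. When proteasome activity is impaired, the transcription factor NFE2L1 raises the transcription of many subunit genes together.

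Reads assigned to genes numbered 15975170, 11290889 and 18944148 in the shYES1 libraries and 12825919, 13651401 and 16388822 in the shNT libraries. Levels are given as CPM, the gene's reads relative to the TMM-scaled library total. YES1, the gene the hairpin targets, averaged 44.1 ± 1.70 CPM in shYES1 cells and 179 ± 1.65 CPM in shNT cells (SD, n = 3 each), a log2 fold change of -2.02 (SE 0.0371, edgeR quasi-likelihood test, adjusted p = 7.93e-40). Of 10 hepatocyte markers only SERPINA1 and TF were expressed highly enough to be tested, and TTR, HNF4A and CYP3A4 had no reads in either group. The epithelial keratins KRT8 and KRT18 and the mesenchymal genes CDH2, FN1, COL1A1 and COL1A2 were expressed in both groups. Marker counts are read beside 32.5% higher and 32.8% lower over all tested genes. Of 5 epithelial markers 3 were tested and KRT8 and KRT18 rose. EPCAM, at 0.979 CPM in shYES1 cells and 1.43 CPM in shNT cells, was not called. The epithelial list summed to 1069.5 to 1091 CPM in shYES1 libraries and 764 to 774 CPM in shNT libraries. Of 6 mesenchymal markers 3 rose (CDH2, COL1A1 and COL1A2) and 3 fell (FN1, VIM and ACTA2). The mesenchymal list, mostly FN1, summed to 23175 to 23288 CPM in shYES1 libraries and 31185 to 34067 CPM in shNT libraries. Of 4 endothelial markers 3 were tested: VWF rose (log2 fold change 2.09, at 1.44 CPM in shYES1 cells and 0.351 CPM in shNT cells), PECAM1 fell (-0.30) and CDH5 was not called. The endothelial list summed to 23.1 to 23.7 CPM in shYES1 libraries and 24.8 to 25.9 CPM in shNT libraries. None of 5 leukocyte markers was tested. Their summed level was 0.599 to 0.913 CPM in shYES1 libraries and 0.151 to 1.13 CPM in shNT libraries. What part these differences have in the values of proteasome genes was not tested.

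Most proteasome subunit genes were moderately higher in shYES1 cells, and a lid subunit, PSMD12, was lower. Of the 8 assembly factors 2 were higher, 4 lower and 2 not called, near the shares over all tested genes. No test set them against the subunits. Of the 52 genes, 50 had enough reads to be tested. The other two, the testis-specific alpha subunit PSMA8 and the thymus-specific beta subunit PSMB11, had 0 reads in all 6 libraries. At an adjusted p under 0.05, 38 genes were higher, 7 were lower and 5 were not called. Calls were frequent in these data: of 14239 genes tested, 65.3% were called, 32.5% as higher and 32.8% as lower. Higher calls made up 76% of the tested proteasome genes and lower calls 14%. In 39 of the 50 genes every shYES1 library lay above every shNT library, where 33.9% of all tested genes did so. In 7 genes all shYES1 libraries were under all shNT libraries, against 34% of all tested genes.

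The median log2 fold change of the 50 genes was 0.26, or 1.2-fold, beside -0.0047 over all tested genes, whose quartiles were -0.34 and 0.28. These changes were small, and 25 of the 50 genes rose by at least 1.2-fold in their estimate. In a test against a change of 1.2-fold, 17 genes were still called higher and 3 lower. Reads on the 52 genes made up 0.617%, 0.627% and 0.619% of gene reads in the shYES1 libraries, against 0.481%, 0.492% and 0.493% in the shNT libraries. The groups did not overlap in this share, which needs no TMM scaling. The share is taken of library totals, as in scaling by library size, and moves with them. Under TMM the summed level of the 52 genes was 18.8% higher in shYES1 cells. The balance of calls over all genes, 4623 higher and 4676 lower, moved with the scaling. Scaling by library size alone gave 5799 higher and 3762 lower genes, and moved the median of all tested genes to 0.09. Scaling factors taken only from genes without the letters CCTTTC in the 3′ UTR, a setting chosen after seeing the data, gave 3633 higher and 5626 lower genes with a median of -0.09. Under it 31 of the proteasome genes were called higher and 8 lower, and the rises of PSMA1, PSMB8, PSMB9, PSMD1, PSMD10, PSME1 and PSMG3 were no longer called. In bulk RNA, fewer cells of a kind and less RNA per cell cannot be told apart.

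**Figure D1:**
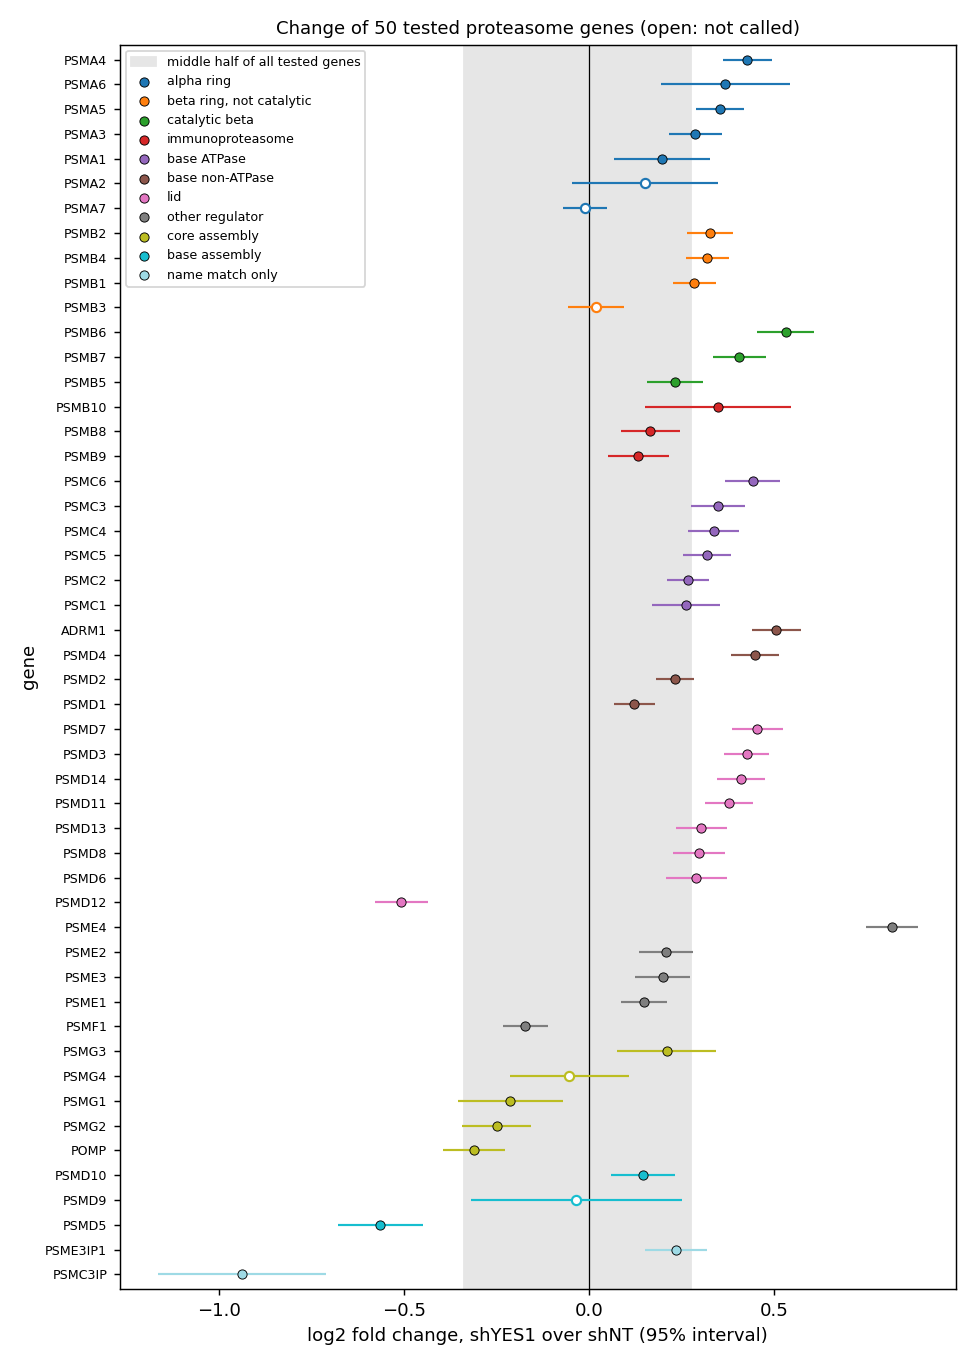
Log2 fold change of shYES1 over shNT cells for the 50 tested proteasome genes, 1 row per gene grouped by role, with bars for 95% intervals and the grey band for the quartiles of all 14239 tested genes. The base and most of the lid and core lie to the right of zero, PSME4 is farthest right at 0.82, and PSMD12, PSMD5, PSMC3IP and most core assembly factors lie to the left.

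Of the 33 genes of the 26S particle (core, base and lid), 32 were tested: 28 were higher, 1 was lower and 3 were not called. Over all tested genes 32.5% were higher and 32.8% lower, and the counts for its parts below are read beside these shares. The summed level of the 26S genes was 4772, 4805 and 4761 CPM in the shYES1 libraries, against 3859, 3921 and 3966 CPM in the shNT libraries, 22.1% more in shYES1 cells. The groups did not overlap, and the SD between libraries was 22.7 CPM in shYES1 cells and 53.9 CPM in shNT cells. The rise was of like size in the parts of the particle: 21.1% in the core, 23.1% in the base and 22.1% in the lid. No test was made of these differences between parts.

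Short stretches of promoter are shown here because the subunit genes moved together and because a common element in such promoters is the antioxidant response element, the site bound by NFE2L1 and related factors. RefSeq windows (GRCh38.p14, 250 bases before to 50 after a start) were at hand for 46 of the 52 genes. The others were PSMA7, PSMB1, PSMB6, PSMB7, PSMD4 and PSMG3. The element's core, TGACNNNGC on either strand, lay in the windows of 16 of 46 genes (34.8%) and of 16.1% of all genes in the table. It was present in 10 of the 33 genes called higher, 4 of the 7 called lower and 2 of the 4 tested but not called. A match describes the letters only. The sequences below run 5′ to 3′ on the gene's strand, the match in capitals, for the gene with the largest rise (PSME4 at chr2:53971009-53971037, reverse strand), a ubiquitin receptor (ADRM1 at chr20:62302749-62302777, forward), an alpha subunit (PSMA4 at chr15:78540650-78540678, forward), the rising lid subunit PSMD3 (chr17:39980760-39980788, forward), the falling lid subunit PSMD12 (chr17:67366724-67366752, reverse) and the falling chaperone PSMD5 (chr9:120843038-120843066, reverse).
PSME4: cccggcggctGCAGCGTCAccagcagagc
ADRM1: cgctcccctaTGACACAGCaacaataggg
PSMA4: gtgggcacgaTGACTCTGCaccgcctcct
PSMD3: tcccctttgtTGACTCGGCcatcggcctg
PSMD12: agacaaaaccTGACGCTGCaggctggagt
PSMD5: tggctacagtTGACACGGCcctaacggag
In PSME4 the match is on the opposite strand, and is printed as its reverse complement. Genes with the match included PSME4, the largest rise, as well as 3 of the 5 largest falls, PSMD5, PSMD12 and PSMG2. The CCAAT box, letters CCAAT on either strand, lay in 23 of 46 windows (50%) and in 39.7% of all genes: in 18 of the 33 called higher and 2 of the 7 called lower.

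In the alpha rings, 5 of 7 tested genes rose, with a median log2 fold change of 0.29 over the 7. PSMA4 had the largest rise, with 150.1, 155.5 and 155.0 CPM in shYES1 libraries and 113.4, 110.0 and 118.2 CPM in shNT libraries (log2 fold change 0.43, SE 0.0332, edgeR adjusted p = 9.96e-16). PSMA5 (178 ± 3.99 CPM in shYES1 cells, 139 ± 5.45 CPM in shNT cells) and PSMA6 rose by 0.36 and 0.37 on the log2 scale, PSMA3 by 0.29 and PSMA1 by 0.20. PSMA7, the most abundant alpha subunit per length, did not follow: it had 225.8, 240.0 and 235.2 CPM in shYES1 libraries and 225.7, 244.3 and 235.1 CPM in shNT libraries. Its log2 fold change was -0.01, with a 95% interval from -0.071 to 0.050, so a rise as large as that of PSMA4 lies outside the interval. PSMA2 averaged 10.1 ± 0.389 CPM in shYES1 cells and 9.14 ± 0.560 CPM in shNT cells and was not called (0.15, edgeR adjusted p = 0.176), although its groups did not overlap.

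Among the beta ring genes without a catalytic site, PSMB2, PSMB4 and PSMB1 rose by 0.33, 0.32 and 0.28 on the log2 scale. PSMB3 was not called: it had 90.1, 88.0 and 90.2 CPM in shYES1 libraries and 86.5, 92.8 and 86.0 CPM in shNT libraries, and these ranges overlap. PSMA7 and PSMB3 were well-expressed core genes for which no change was detected under TMM scaling, and the sign and call of both depended on the settings. Under library-size scaling all 14 tested core genes were called higher, PSMA7 and PSMB3 included. Under the scaling on genes without CCTTTC, PSMA7 was called lower (log2 fold change -0.096).

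All 3 constitutive catalytic subunits rose. PSMB6, which carries the caspase-like site (ENSG00000142507, chr17:4796144-4798503), had 104.9, 103.5 and 105.7 CPM in shYES1 libraries and 75.9, 74.2 and 68.3 CPM in shNT libraries. This 1.45-fold rise (log2 0.53, SE 0.0385, edgeR adjusted p = 9.9e-17) was the largest in the core. PSMB7, which carries the trypsin-like site, had 116.4, 118.5 and 113.2 CPM in shYES1 libraries and 84.3, 87.5 and 89.9 CPM in shNT libraries (1.33-fold). PSMB5, which carries the chymotrypsin-like site and is the main target of proteasome inhibitors, had 93.3, 91.5 and 93.0 CPM in shYES1 libraries and 76.6, 82.6 and 77.5 CPM in shNT libraries (1.17-fold, edgeR adjusted p = 5.78e-07). No library of either group crossed into the other for these 3 genes. The 95% intervals of the log2 fold change were 0.45 to 0.61 for PSMB6 and 0.16 to 0.31 for PSMB5.

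All 3 immunoproteasome subunits were called higher. PSMB8, which replaces PSMB5, had 85.6, 86.1 and 87.4 CPM in shYES1 libraries and 78.0, 81.2 and 72.6 CPM in shNT libraries (log2 fold change 0.17, SE 0.0397, edgeR adjusted p = 0.000291). PSMB9, which replaces PSMB6, had 75.5, 69.3 and 73.1 CPM in shYES1 libraries and 64.6, 66.7 and 67.9 CPM in shNT libraries (0.13, SE 0.0413, edgeR adjusted p = 0.00432). PSMB10, which replaces PSMB7, was much scarcer, with 13.2, 13.2 and 10.7 CPM in shYES1 libraries and 9.29, 10.1 and 9.31 CPM in shNT libraries (0.35, SE 0.0981, edgeR adjusted p = 0.00174). The groups did not overlap for any of the 3. None of these rises was called in the test against 1.2-fold, and those of PSMB8 and PSMB9 were lost when the scaling factors came from the genes without CCTTTC (0.08 with adjusted p = 0.0739 and 0.05 with adjusted p = 0.312 in edgeR). Over the other 15 settings tried, that scaling included, the log2 fold change of PSMB8 ran between 0.08 and 0.26 with adjusted p of 1.79e-07 to 0.0739, and that of PSMB9 between 0.05 and 0.23 with adjusted p of 3.87e-06 to 0.312. Some 34.8% of the exon bases of PSMB10 overlap AC040162.1 on the same strand, and exons of PSMB9 overlap PSMB8-AS1, so reads from the shared bases count for neither gene.

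The ratio of each immunoproteasome gene to its counterpart uses no scaling factor. For PSMB9 over PSMB6 the log2 ratio was -0.47, -0.58 and -0.53 in shYES1 libraries and -0.23, -0.15 and -0.0094 in shNT libraries. All 3 shYES1 libraries lay below all 3 shNT libraries, and the means differed by -0.40, a ratio lower by 24% in shYES1 cells (exact two-sided permutation test, p = 0.1). That is the smallest p that 3 libraries against 3 allow. For PSMB8 over PSMB5 the ratio averaged -0.10 ± 0.0203 in shYES1 cells and -0.031 ± 0.0599 in shNT cells (exact permutation p = 0.3, n = 3 each). For PSMB10 over PSMB7 it averaged -3.24 ± 0.143 in shYES1 cells and -3.19 ± 0.0807 in shNT cells (exact permutation p = 0.7, n = 3 each). These 2 ratios overlapped between the groups. Adjusted over the 3 ratios by Benjamini-Hochberg, these permutation p-values were 0.3 for PSMB9/PSMB6, 0.45 for PSMB8/PSMB5 and 0.7 for PSMB10/PSMB7. Without correction for transcript length, PSMB8 and PSMB9 stood at 0.933 and 0.693 reads per read of their counterpart in shYES1 cells and at 0.979 and 0.913 in shNT cells, and PSMB10 at 0.106 in shYES1 cells and 0.110 in shNT cells.

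**Figure D2:**
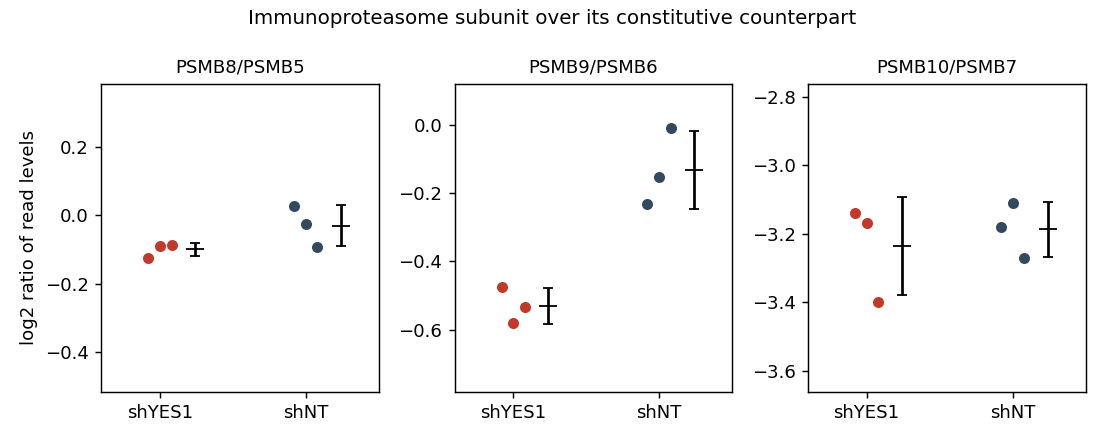
Log2 ratio of the read level of each immunoproteasome subunit to that of its constitutive counterpart, 1 point per library, with the mean and SD beside each group (n = 3). For PSMB9/PSMB6 all shYES1 points lie below all shNT points, and for the other pairs the groups overlap.

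Immunoproteasome promoters are known to carry interferon-stimulated response elements, searched here as GAAA, any 2 bases and GAAA on either strand. That pattern lay in the windows of 7 of 46 genes (15.2%) and of 4.38% of all genes: PSMA4, PSMB4, PSMB8, PSMB10, PSME1, PSME2 and PSMG4. The 4 shown are the 2 immunoproteasome genes with a match, PSMB8 (chr6:32844032-32844061, reverse strand) and PSMB10 (chr16:67936852-67936881, reverse), and both genes of the interferon-inducible activator, PSME1 (chr14:24136189-24136218, forward) and PSME2 (chr14:24146619-24146648, reverse). Capitals mark the match, which in PSMB8 and PSME1 is on the opposite strand.
PSMB8: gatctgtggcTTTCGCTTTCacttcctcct
PSMB10: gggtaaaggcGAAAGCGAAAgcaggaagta
PSME1: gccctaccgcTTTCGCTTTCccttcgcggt
PSME2: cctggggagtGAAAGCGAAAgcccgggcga
The interferon-gamma activated site, searched as TTCNNNGAA, lay in 8 of 46 windows (17.4%) and in 9.38% of all genes, among them PSMB8 and PSMB5. Genes that act with the immunoproteasome or regulate it were called in both directions: of 5, 3 rose, 1 fell and 1 was not called, beside 32.5% higher and 32.8% lower over all tested genes. TAP2 and TAP1, which together pump peptides into the endoplasmic reticulum, rose to 54.4 ± 3.11 and 123 ± 3.95 CPM in shYES1 cells, against 35.1 ± 0.796 and 95.4 ± 2.79 CPM in shNT cells. TAP1 lies head to head with PSMB9 on chromosome 6, their starts 488 bases apart. Its log2 fold change was 0.36, beside 0.13 for PSMB9. NLRC5, an activator of antigen presentation genes, rose by 0.13, a call lost by DESeq2, without shYES1 library 1, without shNT library 3 and under the scaling on genes without CCTTTC. IRF1, an interferon-response factor, was not called (124 CPM in shYES1 cells, 123 CPM in shNT cells).

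All 10 base genes rose. The 6 ATPases, PSMC1 to PSMC6, form the ring that unfolds substrates, and their log2 fold changes lay between 0.26 (PSMC1) and 0.44 (PSMC6). PSMC6 had 114.4, 117.9 and 114.5 CPM in shYES1 libraries and 90.09, 84.5 and 80.9 CPM in shNT libraries. Among the other base genes the estimates for ADRM1 and PSMD4 were above those for PSMD2 and PSMD1, and no test was made between genes. ADRM1, a ubiquitin receptor that also anchors the deubiquitinase UCHL5, had 176.7, 167.7 and 167.1 CPM in shYES1 libraries and 115.1, 120.6 and 123.7 CPM in shNT libraries (1.42-fold, log2 0.51, SE 0.0333, edgeR adjusted p = 3.04e-18). PSMD4, also a ubiquitin receptor, had 159.2, 155.9 and 155.1 CPM in shYES1 libraries and 111.7, 115.0 and 117.3 CPM in shNT libraries (1.37-fold). The large subunits PSMD2 and PSMD1 rose 1.18-fold and 1.09-fold. Their 95% intervals, 0.18 to 0.29 and 0.067 to 0.18 on the log2 scale, do not reach those of ADRM1 and PSMD4, which began at 0.44 and 0.38.

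In the lid, 7 of 8 genes rose, by 0.29 to 0.46 on the log2 scale, and PSMD12 fell. PSMD7, the partner that holds the lid's deubiquitinase in place, had 126.0, 124.4 and 122.2 CPM in shYES1 libraries and 89.8, 89.1 and 92.3 CPM in shNT libraries (1.37-fold, log2 0.46, SE 0.0343, edgeR adjusted p = 3.68e-16). PSMD14, that deubiquitinase, averaged 184 ± 6.96 CPM in shYES1 cells and 138 ± 2.47 CPM in shNT cells. PSMD3, PSMD11, PSMD13, PSMD8 and PSMD6, structural subunits of the lid, rose by 0.43, 0.38, 0.30, 0.30 and 0.29. PSMD12, also a structural subunit (ENSG00000197170, chr17:67337916-67366627, reverse strand), had 79.6, 81.8 and 78.2 CPM in shYES1 libraries and 111.0, 114.4 and 113.9 CPM in shNT libraries. It was 1.42-fold lower in shYES1 cells (log2 -0.51, SE 0.0356, edgeR adjusted p = 3.34e-17), with no overlap between groups, and was the only called member of core, base or lid that fell. SEM1, a small lid subunit that the naming rule does not catch, was not called, at 103 CPM in shYES1 cells and 105 CPM in shNT cells.

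**Figure D3:**
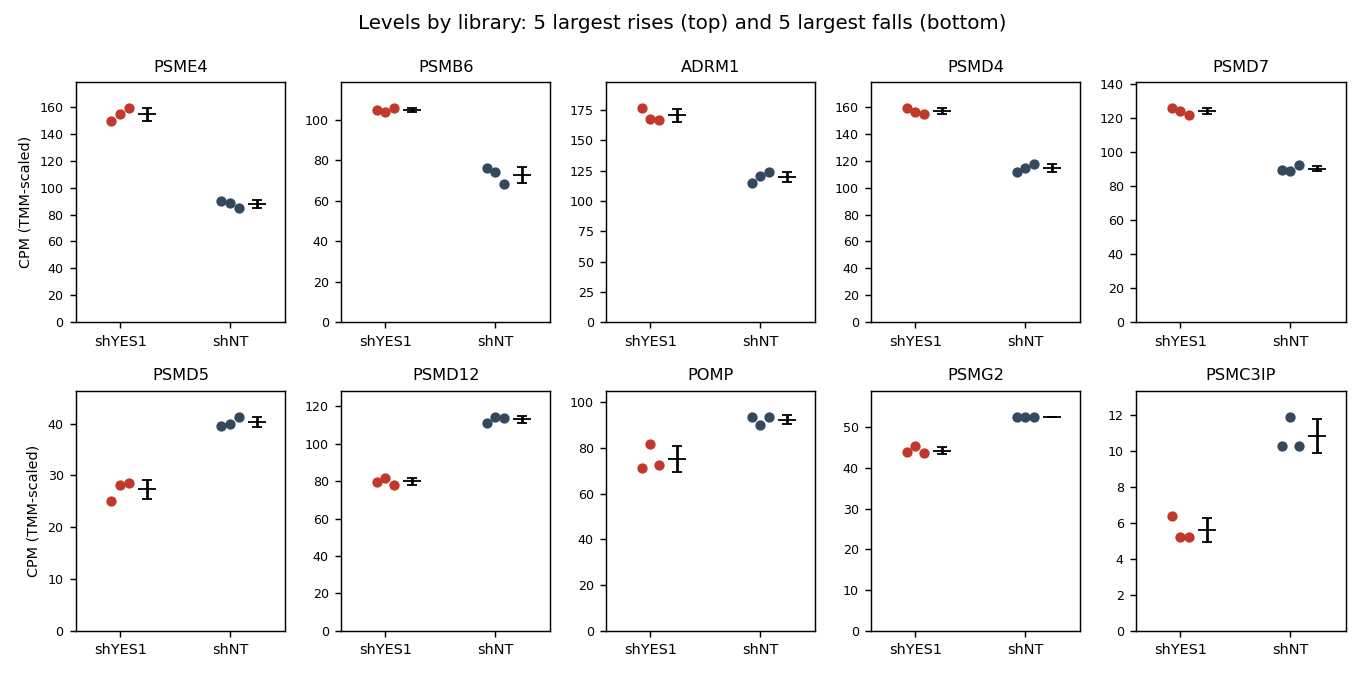
CPM in each library for the 5 largest called rises (top row) and the 5 largest called falls (bottom row) among proteasome genes at a mean of 5 CPM or more, with the mean and SD beside each group (n = 3). In all 10 genes the shYES1 points and the shNT points are apart, PSME4 at 149.9 to 159.3 CPM in shYES1 libraries against 84.9 to 90.01 CPM in shNT libraries.

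Apart from the 19S particle, other proteins cap or inhibit the core. The largest rise of all the proteasome genes was that of PSME4 (ENSG00000068878, chr2:53864067-53970840, reverse strand), a large nuclear activator that opens the core without ATP. It had 149.9, 154.8 and 159.3 CPM in shYES1 libraries and 90.01, 89.0 and 84.9 CPM in shNT libraries. That made it 1.76-fold higher in shYES1 cells (log2 0.82, SE 0.0349, edgeR adjusted p = 2.93e-25), a change above that of 95.9% of all tested genes. The other activators rose less: PSME2, PSME3 and PSME1 rose by 0.21, 0.20 and 0.15 on the log2 scale. PSME1 and PSME2 form the interferon-inducible activator, and PSME3 is its nuclear relative. PSMF1, which binds the core and inhibits it in vitro, fell to 159.5, 155.0 and 154.4 CPM in shYES1 libraries, against 172.3, 175.7 and 179.8 CPM in shNT libraries (-0.17, edgeR adjusted p = 3.05e-06).

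Of the 8 assembly factors, 2 rose, 4 fell and 2 were not called, with a median log2 fold change of -0.13. With 8 genes these counts are near the shares over all tested genes, 32.5% higher and 32.8% lower, and no test set them against the subunits. Their summed level was 266, 285 and 269 CPM in shYES1 libraries and 302, 308 and 306 CPM in shNT libraries, 10.6% less in shYES1 cells by the mean. The groups did not overlap. For the core, POMP, which drives beta ring assembly, had 71.3, 81.6 and 72.4 CPM in shYES1 libraries and 93.6, 89.98 and 93.5 CPM in shNT libraries (1.24-fold lower, log2 -0.31, SE 0.0410, edgeR adjusted p = 5.86e-09). PSMG1 and PSMG2 form a pair that templates the alpha ring, and both fell. PSMG2 had 43.8, 45.3 and 43.7 CPM in shYES1 libraries and 52.4, 52.5 and 52.5 CPM in shNT libraries (-0.25, edgeR adjusted p = 7.44e-06). PSMG1 had 18.3, 19.4 and 17.7 CPM in shYES1 libraries and 21.3, 22.1 and 20.5 CPM in shNT libraries (-0.21, edgeR adjusted p = 0.0074). In a second chaperone pair, PSMG3 rose, with 25.8, 26.1 and 26.1 CPM in shYES1 libraries and 20.4, 24.8 and 22.2 CPM in shNT libraries (0.21, edgeR adjusted p = 0.00506). Its partner PSMG4 was not called, with 15.3, 17.8 and 14.9 CPM in shYES1 libraries and 16.7, 16.7 and 15.8 CPM in shNT libraries. The call of PSMG1 was lost without shYES1 library 3, by DESeq2 and under library-size scaling, and that of PSMG3 was lost without shNT library 1.

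The 3 chaperones of the base diverged. PSMD5 (ENSG00000095261, chr9:120815496-120842984, reverse strand), which holds ATPases during assembly and is released from the finished base, had 25.1, 28.2 and 28.5 CPM in shYES1 libraries and 39.6, 39.9 and 41.3 CPM in shNT libraries. It was 1.48-fold lower in shYES1 cells (log2 -0.56, SE 0.0571, edgeR adjusted p = 4.4e-12). PSMD10, also known as gankyrin and long studied as an oncoprotein of hepatocellular carcinoma, rose by 0.15, with 62.0, 62.1 and 60.5 CPM in shYES1 libraries and 54.0, 57.0 and 55.6 CPM in shNT libraries. PSMD9 was the scarcest tested gene, at 4.50, 4.19 and 4.65 CPM in shYES1 libraries and 4.36, 4.62 and 4.75 CPM in shNT libraries, and was not called. Its 95% interval, -0.32 to 0.25 on the log2 scale, holds changes in both directions. Exons of PSMD9 overlap WDR66 on the same strand. PAAF1, a base chaperone outside the naming rule, rose by 0.16.

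The genes caught by name alone also changed. PSMC3IP, a meiotic recombination factor that binds PSMC3, fell to 6.39, 5.22 and 5.21 CPM in shYES1 libraries, against 10.3, 11.9 and 10.3 CPM in shNT libraries (-0.94, SE 0.113, edgeR adjusted p = 5.12e-10), the largest fall of the 50. PSME3IP1, which binds PSME3, rose by 0.24. Leaving these genes out, 37 of 48 tested proteasome genes were higher and 6 were lower, beside 32.5% higher and 32.8% lower over all tested genes.

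Levels of different genes were compared per length, as CPM per kilobase of the principal transcript. In the core this level spanned from 295 (PSMB1) to 6.77 (PSMA2) in shYES1 cells and from 242 (PSMB1) to 6.14 (PSMA2) in shNT cells, with a median of 111 to 113 in shYES1 libraries and 85.3 to 85.9 in shNT libraries. The low end was PSMA2, PSMA6 and PSMA1, at 6.77, 14.5 and 16.4 in shYES1 cells and 6.14, 11.1 and 14.3 in shNT cells. Exons of each of these 3 share bases with a second annotated gene of that strand, and reads on shared bases count for neither gene. The part this plays in their low level was not tested. Few reads were assigned to processed copies: 45 numbered pseudogenes of 18 of the 52 genes summed to 10.1 CPM in shYES1 cells and 8.74 CPM in shNT cells. PSMA2, PSMA6 and PSMA1 have 3, 4 and 1 of these pseudogenes. Reads that map to both a gene and its copy count for neither, so these sums do not show how many reads were lost that way.

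Within the lid, where subunits are needed in equal numbers, the SD of the log2 level per kilobase over its 8 genes was 0.790 to 0.798 in shYES1 libraries and 0.532 to 0.565 in shNT libraries. Without PSMD12 it was 0.470 to 0.486 in shYES1 libraries and 0.441 to 0.477 in shNT libraries. PSMD12 was the lowest lid gene per length in both groups, at 18.1 in shYES1 cells and 25.7 in shNT cells, and PSMD11, the next lowest, stood at 36.5 in shYES1 cells and 28.1 in shNT cells. The gap of PSMD12 to the rest of the lid was wider in shYES1 cells. Its rank rests on the transcript used, which for PSMD12 was the longest of the lid (4406 bases). In CPM, PSMD12 in shNT cells (113) stood above PSMD6, PSMD7, PSMD8 and PSMD13, and below PSMD3, PSMD11 and PSMD14. In shYES1 cells (79.8 CPM) it stood above PSMD6 only. Over the core the spread was 1.65 to 1.66 in shYES1 libraries and 1.65 to 1.68 in shNT libraries. Much of it came from the low genes PSMA1, PSMA2 and PSMA6. Without them the core spread was 0.943 to 0.958 in shYES1 libraries and 1.01 to 1.04 in shNT libraries, a difference that was not tested. Over the base ATPases it was 1.0 to 1.05 in shYES1 libraries and 0.962 to 1.03 in shNT libraries. Across the 50 tested genes, the log2 level per kilobase and the log2 fold change correlated at 0.37 (Pearson) and 0.26 (Spearman), a description across genes of the same 6 libraries.

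**Figure D4:**
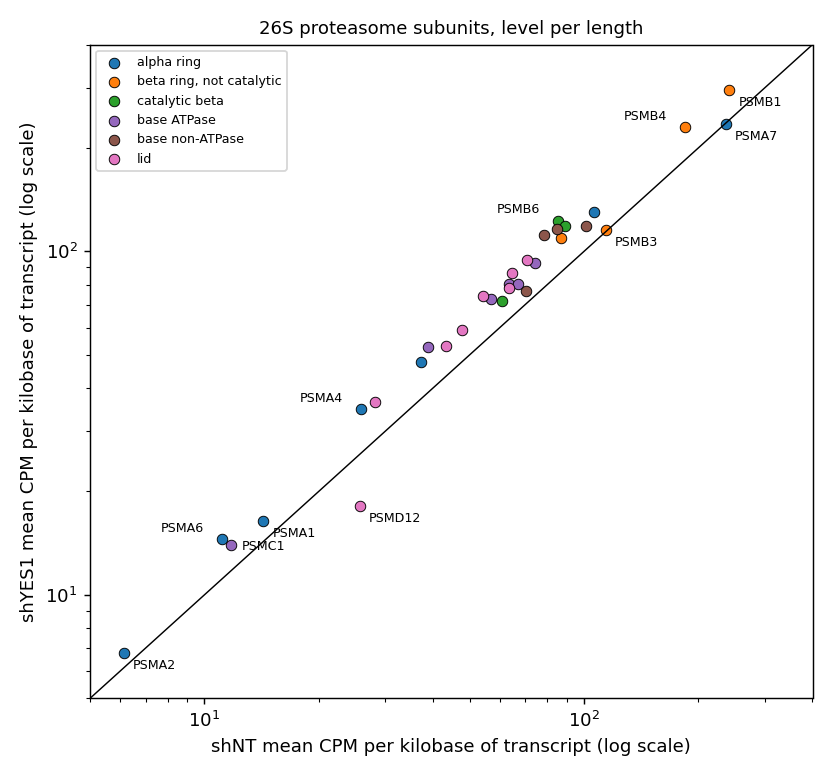
Mean CPM per kilobase of transcript in shYES1 cells (vertical, log scale) against shNT cells (horizontal, log scale) for the 32 tested genes of core, base and lid, coloured by role, with the line of equal levels. Most genes lie above the line by a like distance, PSMA7 and PSMB3 lie on it, and PSMD12 lies below it at 18.1 in shYES1 cells against 25.7 in shNT cells.

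Genes that feed the proteasome or regulate it were called in both directions, which is read beside the 32.5% higher and 32.8% lower over all tested genes. Among the 4 ubiquitin genes and 2 ubiquitin-activating enzymes, 2 rose and 4 fell. Ubiquitin genes have many processed copies in the genome, so their counts are uncertain. UBA1, the main activating enzyme, rose to 473 ± 3.07 CPM in shYES1 cells, against 385 ± 8.0 CPM in shNT cells (0.30), while UBA6, the other, fell by 0.28. UBB, a polyubiquitin gene, rose by 0.37 (327 ± 33.6 CPM in shYES1 cells, 254 ± 20.3 CPM in shNT cells, edgeR adjusted p = 0.0364). The UBB call was lost without shYES1 library 2, without shNT library 1 and without shNT library 3, with unstranded counts and under the scaling on genes without CCTTTC.

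In the pathway that activates NFE2L1, 6 of 11 genes rose, 4 fell and 1 was not called, where 32.5% of all tested genes were higher and 32.8% lower. NFE2L1 itself rose to 632 ± 10.2 CPM in shYES1 cells, against 501 ± 10.05 CPM in shNT cells (0.34, edgeR adjusted p = 1.54e-16). VCP and NPLOC4, which extract it from the endoplasmic reticulum, rose by 0.39 and 0.38, and MAFK, a small MAF partner, by 0.79. The enzymes that process NFE2L1 were lower, with log2 fold changes of -0.42 for NGLY1, which removes its glycans, and -0.18 for the protease DDI2. MAFF, another MAF partner, fell by 0.47. The call of DDI2 was lost under library-size scaling.

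Among 20 proteins that bind the proteasome or shuttle substrates to it, 10 genes rose, 7 fell and 3 were not called. Over all tested genes 32.5% were higher and 32.8% lower. The share of the list that fell is near the latter, so the falls are no result about the list. The share that rose is above the former, and with 20 genes this was not tested. The largest fall was that of USP14, the deubiquitinase that docks on the base, at 92.3 ± 3.39 CPM in shYES1 cells and 184 ± 1.1 CPM in shNT cells (log2 -0.99, edgeR adjusted p = 1.73e-29). UCHL5, the deubiquitinase anchored by ADRM1, fell by 0.28, and the ubiquitin ligase UBE3A by 0.36. Of the 3 deubiquitinases of the particle, the integral subunit PSMD14 rose and both docked enzymes fell. ZFAND5 and TXNL1, proteins that bind the 26S particle, rose by 0.29 and 0.28.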

How the data were processed

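The authors deposited raw read counts for each gene, with 1 file per library. Processing used CASAVA 1.8.2, Trimmomatic 0.35, STAR 2.5.1b and build GRCh38, per the submitters' processing notes, and per the labels' protocols the libraries were stranded and made from poly(A) RNA. The sources used here do not give the annotation release. Counts on the reverse strand were used, which held 93.5% to 94.0% of stranded gene reads. Entries naming no gene held 19.8% to 20.3% of reads and were left out. Of the 58219 identifiers, 57881 are in GENCODE 29, the source of symbols, coordinates and transcript lengths. A read that maps to several places or to shared exon bases counts for no gene. Exon bases shared on the same strand touch 8 of the 52 genes, and 18 of the 52 have a numbered pseudogene.

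The software was edgeR 4.0.16 in R 4.3.3. The filter filterByExpr (minimum count 10, minimum total 15) kept 14239 genes, scaling was by TMM, and shYES1 was set against shNT by the robust quasi-likelihood test, with Benjamini-Hochberg adjustment over all genes tested and a threshold of 0.05. The common biological coefficient of variation was 2.10%. SE is the size of the log2 fold change divided by the square root of F, which is approximate. The fit was tested on simulated counts. It recovered 63.3% of genes with a log2 change of 0.25, 69.4% of those with 0.5 and 98% of those with 1. Of the simulated calls 2.42% were false. A gene not called can therefore hold a change of the size seen in many proteasome genes. Precision is limited by 3 libraries per group. Libraries of a group were compared in pairs by a chi-square per degree of freedom, which counting noise alone puts near 1. It was 1.15 to 1.59 for shYES1 pairs and 1.80 to 2.20 for shNT pairs. No pair was within counting noise, but shYES1 libraries 2 and 3 (1.15) came close to it. Alternatives were RLE and library-size scaling, DESeq2 1.42.0, limma 3.58.1 voom, other filters, unstranded counts, a test against 1.2-fold, a replicate block, leaving out each library, and scaling factors from genes whose 3' UTR lacks CCTTTC (added after seeing the data).

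The proteasome genes and the other lists were chosen with earlier results of these data known. Per-library values are given for the 5 largest called rises and falls at a mean of 5 CPM or more, for the catalytic, immunoproteasome and assembly genes, and for others chosen after their values were seen (PSMA4, PSMA7, PSMB3, PSMC6, PSMF1). Of each pathway list up to 3 called rises and 3 called falls are named, and some that this rule names are not reported here. SEM1, PAAF1, IRF1 and NFE2L1 were added to these after their values were seen.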

Additional observations from a re-analysis of the deposited data

How the results depend on the processing

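Of the 45 called proteasome genes, 20 kept their direction and call under every alternative run, and none of the 45 changed sign. The test against 1.2-fold made the most difference. With it there were 5185 genes called, 17 proteasome genes higher and 3 lower, and among these 6 core subunits higher, 11 regulatory subunits higher, 1 regulatory subunit lower and 0 immunoproteasome subunits. None of these 3 passed it at an unadjusted p under 0.05 either, and DESeq2, which tests against no change, called all 3. Scaling by library size moved the median log2 fold change to 0.40 for core, 0.26 for immunoproteasome and 0.40 for regulatory subunits. Scaling on genes without CCTTTC moved these medians to 0.22, 0.0805 and 0.22, and gave 1 core subunit lower (PSMA7) and 1 immunoproteasome subunit higher. The difference in the immuno to constitutive ratio PSMB10/PSMB7 reversed to 0.0273 with unstranded counts and lay between -0.0979 and 0.0325 with a library left out. The cause was not tested.

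Reversals were otherwise among genes that were not called under TMM scaling. PSMA7 moved to 0.0863 under library-size scaling, where it was called higher. It moved to 0.00287 without a low-count filter, and lay between -0.0388 and 0.0149 with a library left out. PSMB3 moved to -0.0659 under the scaling on genes without CCTTTC, and lay between -0.00352 and 0.0525 with a library left out. PSMD9 moved to 0.0627 under library-size scaling and 0.0048 with unstranded counts. PSMG4 moved to 0.0432 under library-size scaling, and lay between -0.116 and 0.00203 with a library left out. With a library left out, 37 to 38 proteasome genes were higher, 6 to 7 were lower, and the number of genes called was 8751 to 9078.

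The labels give both groups replicate numbers 1 to 3, but same-numbered libraries deviated from their group means together only weakly (correlations of 0.0116, 0.0252 and 0.0122), so the numbers were not taken as a pairing. The replicate block left 9297 genes called, 4628 higher and 4669 lower, with the same 38 and 7 counts of proteasome genes. Scarce genes limit the depth of what was seen: PSMD9, at 4.45 CPM in shYES1 cells and 4.58 CPM in shNT cells, had an SE of 0.141.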

Other observations

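Several RNAs named after proteasome genes are antisense or divergent transcripts rather than subunits. PSMG3-AS1, beside PSMG3, was lower, at 2.07 CPM in shYES1 cells and 3.08 CPM in shNT cells (log2 fold change -0.57, edgeR adjusted p = 0.0091), where PSMG3 itself rose. PSMA3-AS1, beside PSMA3, fell to 42.6 ± 1.91 CPM in shYES1 cells, against 46.0 ± 2.07 CPM in shNT cells (-0.12, edgeR adjusted p = 0.0347), where PSMA3 rose. The groups overlapped for PSMA3-AS1, with 44.3 CPM in shYES1 library 2 and 44.0 CPM in shNT library 1. PSMB8-AS1, at 13.9 CPM in shYES1 cells and 12.9 CPM in shNT cells, was not called.

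The annotated 3' UTRs of 12 proteasome genes, 11 of them tested, hold the letters CCTTTC, which were chosen after seeing the data. Of these 11 genes 6 were higher and 3 lower (PSMD5, PSMD12 and PSMF1), with a median log2 fold change of 0.24. Of the 39 tested genes without them 32 were higher and 4 lower, with a median of 0.28. Among all tested genes, 4906 had the letters, of which 1450 were higher and 2247 lower, with a median of -0.10. Another 7033 lacked them, of which 2916 were higher and 1865 lower, with a median of 0.09. Genes with no annotated 3' UTR are in neither of these counts, while the 39 proteasome genes include PSME3, which has none in the transcript used. The length of the 3' UTR was not taken into account. Of the 7 proteasome genes called lower, 3 had the letters, where 2247 of all 4676 genes called lower did. The count of 3 is near that share and is no result about the proteasome genes.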
